A study of Mus musculus with 12 samples.

Results

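Of the 12 spinal cord libraries of the study 6, namely 3 from Plekhg5-/- mice and 3 from Plekhg5+/+ mice, carried no SOD1-G93A transgene and are compared here. They were chosen by genotype alone, and the question they address is which transcripts of the spinal cord differ when Plekhg5 is lost in otherwise healthy mice. All mice were kept on a C57BL/6 background and were 7 months old, and RNA was taken from dissected spinal cord. The other 6 libraries came from mice of either Plekhg5 genotype with the low-copy SOD1-G93A transgene, a mutated human superoxide dismutase used as a model of inherited amyotrophic lateral sclerosis. They share no library with the comparison without the transgene and were used as a second, separate comparison of the same 2 Plekhg5 genotypes. The labels name no promoter or Cre line for the loss of Plekhg5. How the allele was made, the segment of the cord and the sex of each mouse are not given in the sources used here.

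Plekhg5 is a guanine nucleotide exchange factor of the pleckstrin homology domain family. It switches small GTPases, among them Rab26, to their active form, and through Rab26 it directs synaptic vesicles into autophagosomes in the terminals of motoneurons. Mutations in the human gene cause motoneuron disease and neuropathy, and the activation of Rab26 by Plekhg5 is also needed for secretory autophagy, in which lysosome-related organelles that took up the cargo of autophagosomes release it at the plasma membrane.

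The 6 libraries held 31573658 to 34656751 counts summed over genes. RNA was measured in whole tissue, so that fewer cells of a type and less RNA per cell cannot be told apart. Markers of the labelled tissue were present in all 6 libraries. Mbp, which encodes a myelin protein, lay at 11700 to 15700 CPM (counts scaled to library size), and Chat, the enzyme that makes acetylcholine in motoneurons, at 28.3 to 32.6 CPM. Some libraries stood apart in single respects. The second Plekhg5-/- library had 2 counts on 4 Y-linked genes and 26168 on Xist, whereas the other 5 had 6686 to 7123 Y-linked counts and at most 52 on Xist. The third Plekhg5+/+ library and the second Plekhg5-/- library held transcripts of skeletal muscle (summed level of Acta1, Ckm and Myh4 of 100 and 28.6 CPM, against 1.26 to 3.95 in the other 4). Human SOD1, absent from the genome of these mice, had 5 to 187 counts in the 6 libraries, against 142348 to 196852 in the 6 libraries with the transgene.

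Loss of Plekhg5 was followed by few changes. Of 20155 genes tested, 6 were changed (0.0298% of the genes tested, adjusted p under 0.05, edgeR's quasi-likelihood test with Benjamini-Hochberg adjustment), and at an unadjusted p under 0.05 there were 1073 (5.32%). Of the 6 changed genes, 4 lay within 10 Mb of Plekhg5 on chromosome 4. These were Plekhg5 itself, its neighbour Tnfrsf25, the fructose transporter gene Slc2a5 and the long non-coding RNA Gm30120. The other 2, Gm8483 on chromosome 14 and LOC115489042 on chromosome 19, are annotated as pseudogenes, and their sequences are close to those of Eno1 and Vamp3, which both lie within 2 Mb of Plekhg5. No gene of the 43 gene lists described below passed the test outside the 10 Mb window.

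The transcript sequences of the 2 pseudogenes are shown first beside those of their matching genes, because each stretch is as long as a sequencing read of the study (75 bases). The sequences are the GENCODE M21 transcripts on GRCm38, in lower case, with capitals at the bases that differ between the pair. Between Eno1, which encodes the glycolytic enzyme alpha-enolase (chromosome 4, 150236692 to 150248873, plus strand), and Gm8483 (chromosome 14, 14447316 to 14449088, minus strand), 2 of the 75 bases differed at the start of the coding sequence. Over 1302 aligned bases the identity was 94.3%.
Eno1: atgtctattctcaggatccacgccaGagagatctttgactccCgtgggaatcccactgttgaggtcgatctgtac
Gm8483: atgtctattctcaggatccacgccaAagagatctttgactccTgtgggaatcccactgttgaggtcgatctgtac
Between Vamp3, which encodes a vesicle membrane protein of the SNARE fusion machinery (chromosome 4, 151047305 to 151057953, minus strand), and LOC115489042 (chromosome 19, 10173765 to 10180504, minus strand), 4 of the 75 bases differed. The identity was 94.5% over 309 aligned bases.
Vamp3: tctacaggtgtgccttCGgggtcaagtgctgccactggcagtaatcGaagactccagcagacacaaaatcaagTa
LOC115489042: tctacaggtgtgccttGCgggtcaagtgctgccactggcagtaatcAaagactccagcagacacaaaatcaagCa

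Plekhg5 (chromosome 4, 152072433 to 152115404) was measured at 19.4, 24.5 and 25.0 CPM in the Plekhg5+/+ libraries and at 3.28, 3.98 and 4.70 CPM in the Plekhg5-/- libraries. The groups did not overlap, and the 3 knockout libraries kept transcripts of the gene at 17.4% of the Plekhg5+/+ mean. The log2 fold change was -2.53 (SE 0.143, adjusted p = 5.39e-06, edgeR's quasi-likelihood test). A two-sided exact permutation test on the CPM values gave p = 0.1, which is the smallest value possible for 3 against 3. Since counts were summed over all exons of the gene, the remaining reads cannot be placed relative to the deleted part.

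Tnfrsf25 is the next gene downstream of Plekhg5, on the same strand (152115528 to 152120119), and encodes a death domain receptor of the tumour necrosis factor family known from lymphocytes. It was measured at 1.30, 1.92 and 0.949 CPM in the Plekhg5+/+ libraries and at 0.0293, 0.181 and 0 CPM in the Plekhg5-/- libraries. All 3 knockout libraries lay below all 3 controls, at 7 counts in sum against 137. The log2 fold change was -4.23 (SE 0.558, adjusted p = 0.0159, edgeR's quasi-likelihood test). The call was lost without the first or the second Plekhg5+/+ library (adjusted p = 0.0584 and 0.0903), without the first or the third Plekhg5-/- library (0.12 and 0.0541) and when only the 6 libraries entered the fit (0.192), while the direction was kept. In mice with the transgene Tnfrsf25 was at 0.435, 0.693 and 0.72 CPM with Plekhg5 and at 0.123, 0.121 and 0.0777 CPM without it, again without overlap (log2 fold change -2.50, adjusted p = 0.388, edgeR's quasi-likelihood test).

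The other genes next to Plekhg5 did not pass the test. The 3 tested genes on the one side were Tas1r1, a subunit of the umami taste receptor, Zbtb48 and Nol9. On the other side Tnfrsf25 was followed by Espn, which encodes an actin-bundling protein, and the pseudogene Gm13077. Tas1r1 had 0.058, 0.126 and 0.214 CPM in the Plekhg5+/+ libraries and 0.41, 0.331 and 0.189 CPM in the Plekhg5-/- libraries, which overlap (log2 fold change 1.22, adjusted p = 0.883). Log2 fold changes were 0.00 for Zbtb48, 0.09 for Nol9, -0.27 for Espn and 0.28 for Gm13077, each with an adjusted p of 0.976 to 1 (edgeR's quasi-likelihood test).

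Slc2a5 (150119344 to 150144168) encodes the fructose transporter GLUT5, which in the central nervous system is a marker of microglia. It was measured at 3.54, 3.34 and 4.44 CPM in the Plekhg5+/+ libraries and at 1.17, 1.42 and 1.58 CPM in the Plekhg5-/- libraries. The lowest control lay above the highest knockout library, and the log2 fold change was -1.44 (SE 0.175, adjusted p = 0.0077, edgeR's quasi-likelihood test). With the transgene it had 3.54, 4.32 and 4.86 CPM against 1.54, 1.43 and 1.66 CPM, a log2 fold change of -1.46 (adjusted p = 0.00576, same test). The call did not hold without the first or the second Plekhg5-/- library (adjusted p = 0.064 and 0.0639) or with only the 6 libraries in the fit (0.134). Of the 14 other homeostatic microglial genes tested, all outside the window, 0 passed the test and 1 had an unadjusted p under 0.05. Of all genes tested, 5.32% had one.

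Gm30120 (150965587 to 150980888) was the changed gene of the window that rose. It was measured at 0.696, 0.567 and 0.674 CPM in the Plekhg5+/+ libraries and at 3.07, 4.22 and 3.41 CPM in the Plekhg5-/- libraries. The groups were far apart, with a log2 fold change of 2.46 (SE 0.191, adjusted p = 0.000121, edgeR's quasi-likelihood test). With the transgene the corresponding levels were 0.528, 0.33 and 0.39 CPM against 3.15, 3.16 and 2.72 CPM (log2 fold change 2.84, adjusted p = 4.99e-05, same test). Its counts were not whole in 6 of the 12 libraries, which under the counting of the study arises from reads with several alignments or on overlapping features.

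**Figure D1:**
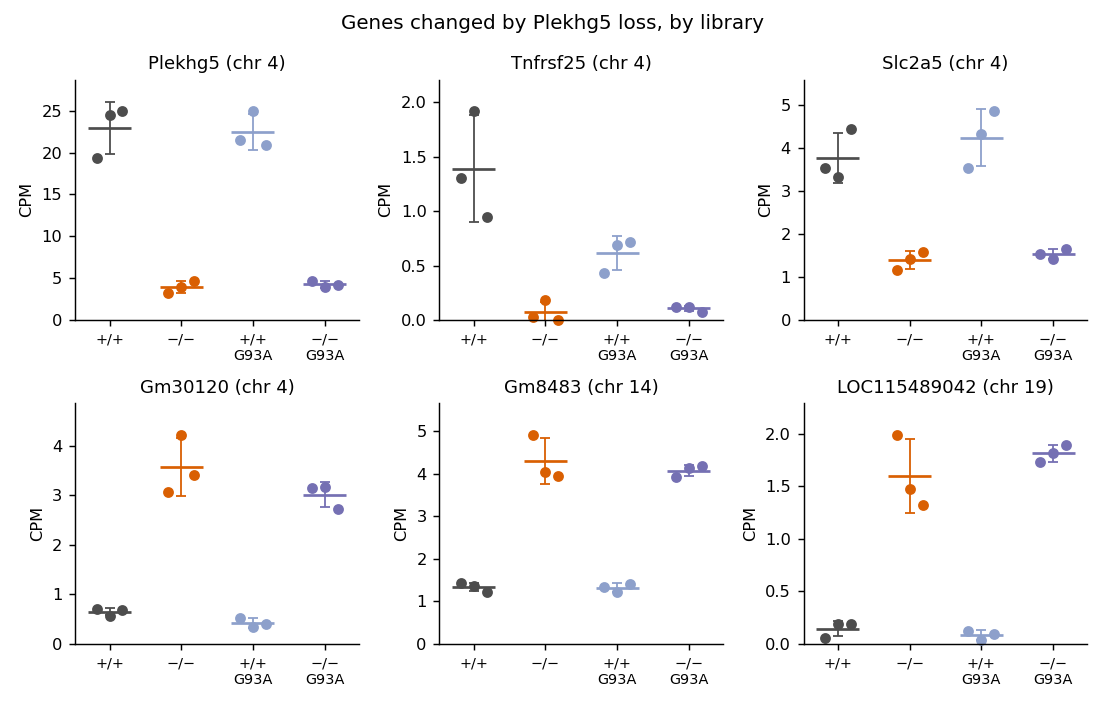
Levels of the 6 changed genes in CPM (y axis, from 0), with 1 point per library, the mean as a horizontal line and the SD as a bar (n = 3). In each of the 6 genes the Plekhg5-/- libraries (orange) lie apart from the Plekhg5+/+ libraries (dark grey), and the libraries with SOD1-G93A (blue and violet) show the same order.

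Next, the surroundings of Plekhg5 were described as a whole. Besides Plekhg5, 223 tested genes lay within 10 Mb, a window that reaches the end of the chromosome on one side. Of these, 34 (15.2%) had an unadjusted p under 0.05, 19 lower and 15 higher in Plekhg5-/- mice, against 5.32% of all genes tested. The share was 30.4% (7 of 23 genes) within 1 Mb, 20.6% (7 of 34) from 1 to 2.5 Mb, 14.2% (17 of 120) from 2.5 to 5 Mb and 6.52% (3 of 46) from 5 to 10 Mb. It was 7.14% from 10 to 20 Mb, 4.97% on the rest of chromosome 4 and 5.2% on all other chromosomes. The median size of the log2 fold change was 0.125 in the window and 0.0848 on other chromosomes.

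Among the genes of the window that did not pass the test after adjustment, Megf6, Ttc34, Angptl7 and Masp2 had unadjusted p-values of 0.000652 to 0.00671. Megf6, which encodes a protein with EGF-like repeats, was at 5.16, 6.20 and 5.33 CPM in Plekhg5+/+ and at 2.90, 3.62 and 2.93 CPM in Plekhg5-/- libraries (log2 fold change -0.82, adjusted p = 0.508, edgeR's quasi-likelihood test). Masp2, a serine protease of the lectin pathway of complement, was at 0.986, 1.45 and 1.01 CPM against 2.17, 3.37 and 3.22 CPM (log2 fold change 1.35, adjusted p = 0.695, same test). In both genes the groups did not overlap. Hes3, a repressor of the Hes family 0.170 Mb from Plekhg5, was at 0.812, 0.881 and 1.44 CPM against 1.93, 2.17 and 1.96 CPM (log2 fold change 0.95, adjusted p = 0.711, same test).

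Zinc finger genes of the same chromosome arm varied between single animals of one genotype. Zfp990 (position -6.53 Mb relative to Plekhg5) had 0.0585, 0.0904 and 4.73 CPM in the 3 Plekhg5-/- libraries and 0.029 to 0.0629 CPM in the Plekhg5+/+ libraries, so that 1 knockout library alone was high. With the transgene it had 0.0621, 1.98 and 0.09 CPM with Plekhg5 and 2.75, 2.28 and 2.67 CPM without it. Gm42346 (-6.62 Mb) was high in the same 5 libraries (1.70 CPM in the third Plekhg5-/- library and 0.455 to 0.699 CPM in the 4 with the transgene) and at or below 0.0603 CPM in the other 7. Zfp534 (-4.37 Mb) showed the same split, at 0.757 CPM in the third Plekhg5-/- library, 0.264 to 0.524 CPM in those 4 and at most 0.0919 CPM in the others. Fitted log2 fold changes of 5.41 for Gm42346, 4.89 for Zfp990 and 2.81 for Zfp534 (adjusted p = 0.929 each, edgeR's quasi-likelihood test) therefore rest on the third Plekhg5-/- library. In all 3 genes counts were not whole in 10 to 12 of the 12 libraries.

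**Figure D2:**
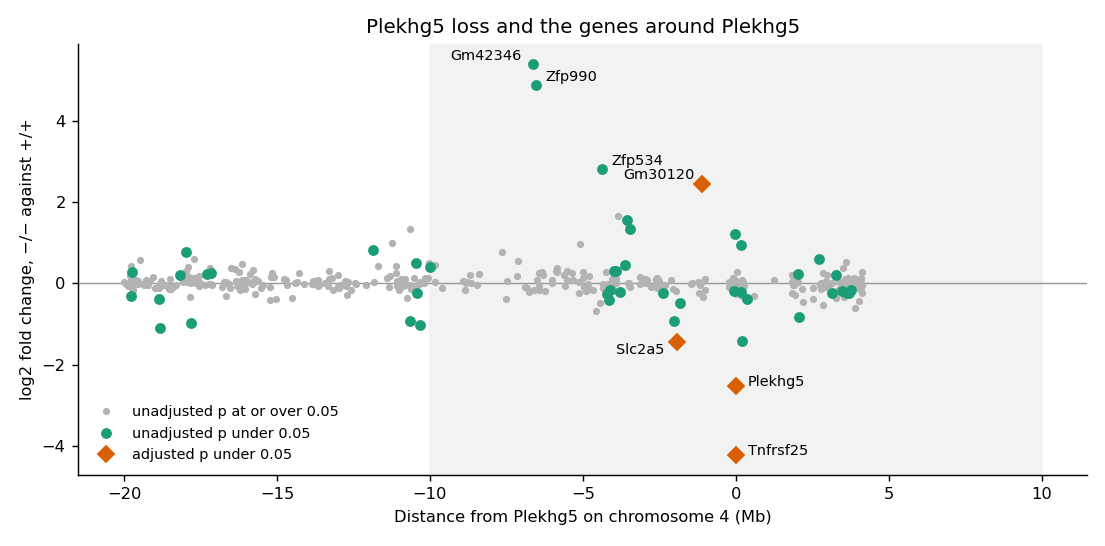
Log2 fold change between Plekhg5-/- and Plekhg5+/+ libraries (y axis) of each tested gene within 20 Mb of Plekhg5 on chromosome 4, by its distance in Mb (x axis), with the 10 Mb window in grey. Diamonds mark the 4 changed genes, green points those with an unadjusted p under 0.05 (7 of 23 genes within 1 Mb), and genes end about 4 Mb to the right because the chromosome does.

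The comparison in mice with SOD1-G93A came from other animals. There 7 genes were changed (0.0347% of the genes tested, edgeR's quasi-likelihood test) and 1741 had an unadjusted p under 0.05 (8.64%). Over the 223 genes of the window the log2 fold changes of the 2 comparisons had a Pearson correlation of 0.74. This value includes Gm42346, Zfp990 and Zfp534, whose fold changes without the transgene rest on the third Plekhg5-/- library. It was 0.88 over the 23 genes within 1 Mb and 0.93 over the 34 from 1 to 2.5 Mb. These nearer genes include the changed genes Tnfrsf25, Slc2a5 and Gm30120, and the correlation without outlying genes was not computed. Of the 34 genes of the window with an unadjusted p under 0.05 without the transgene, 27 had the same sign with it and 12 also an unadjusted p under 0.05. Over the 18890 genes on other chromosomes the correlation was -0.12, and of 982 genes with an unadjusted p under 0.05, 317 had the same sign and 21 also an unadjusted p under 0.05 with that sign. These correlations describe genes, which share libraries within each comparison and are not replicates.

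**Figure D3:**
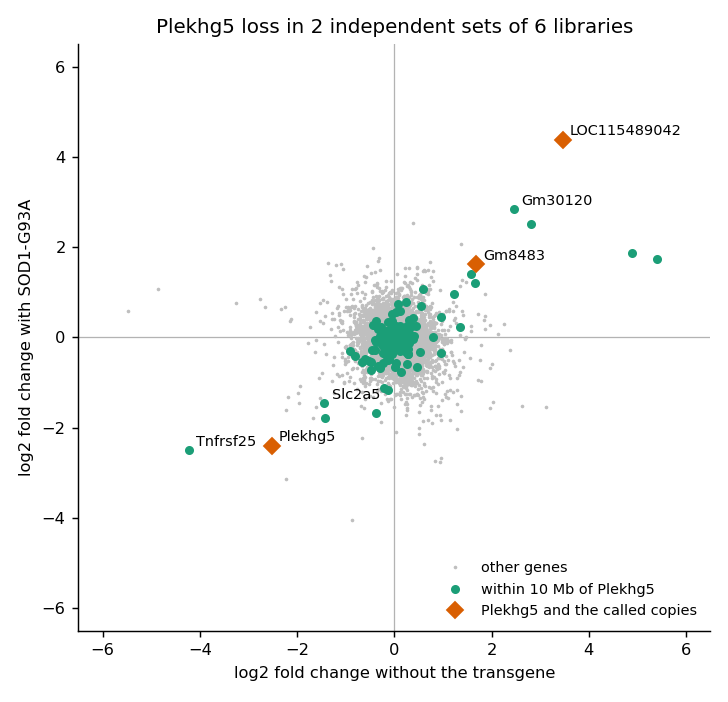
Log2 fold change of each tested gene between Plekhg5-/- and Plekhg5+/+ libraries without the transgene (x axis) and with SOD1-G93A (y axis), for 223 genes within 10 Mb of Plekhg5 in green and all others in grey; 1 gene, Xist, lies beyond the axes. Over the genes of the window r was 0.74, although most lie near the centre (median size 0.125 without the transgene). Outlying genes such as Gm42346 and Zfp990, which rest on 1 Plekhg5-/- library, enter this value. Gm8483 and LOC115489042 were higher in both comparisons, and over genes on other chromosomes r was -0.12.

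The 2 pseudogenes were then followed together with their matching genes. Gm8483 was measured at 1.42, 1.35 and 1.23 CPM in the Plekhg5+/+ libraries and at 4.92, 4.04 and 3.94 CPM in the Plekhg5-/- libraries, without overlap (log2 fold change 1.69, SE 0.137, adjusted p = 0.00014, edgeR's quasi-likelihood test). Eno1 itself moved the other way, from 408, 371 and 352 CPM to 299, 258 and 249 CPM (log2 fold change -0.49, SE 0.0791, adjusted p = 0.103, same test), also without overlap. A pair of further Eno1 copies had higher levels without passing the test, Eno1b on chromosome 18 (99.5% identity, log2 fold change 0.42, adjusted p = 0.216) and the processed pseudogene Gm5855 on chromosome 3 (96.3% identity, log2 fold change 0.54, adjusted p = 0.253). The copy with the highest identity, Gm4735 on chromosome 2 (99.6%), had a log2 fold change of 0.12 (adjusted p = 0.976).

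Counted together, Eno1 and its 7 copies were at 725, 664 and 632 CPM in Plekhg5+/+ and at 706, 609 and 587 CPM in Plekhg5-/- libraries. The 2 ranges overlapped, and the log2 fold change of the sum was -0.09 (SE 0.0777, adjusted p = 0.997, edgeR's quasi-likelihood test). What differed was the division of the sum. Eno1 held 56.3%, 55.8% and 55.7% of it in the Plekhg5+/+ libraries and 42.3% in each of the 3 Plekhg5-/- libraries. With the transgene the sums were 657, 628 and 699 CPM against 605, 622 and 577 CPM, without overlap (log2 fold change -0.14, adjusted p = 0.609, edgeR's quasi-likelihood test). There the shares were 55.8%, 56.2% and 56.1% with Plekhg5 and 41.9%, 42.1% and 42.2% without it. The counts of Eno1 and Gm8483 were not whole in all 12 libraries, from reads with several alignments or on overlapping features, which the counts do not tell apart.

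**Figure D4:**
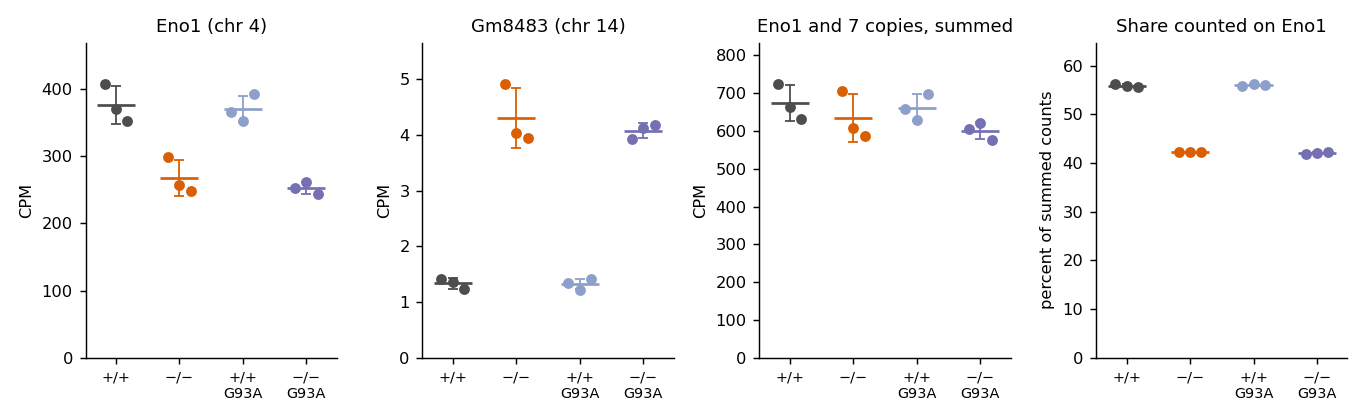
Levels of Eno1, of the pseudogene Gm8483 and of Eno1 with its 7 copies in CPM, and the share of the summed counts held by Eno1 in percent (y axes, from 0), with 1 point per library, mean and SD (n = 3). The sums overlap between the genotypes without the transgene and not with it (577 to 622 against 628 to 699 CPM), whereas the share lies at 55.7% to 56.3% in all 6 Plekhg5+/+ libraries and at 41.9% to 42.3% in all 6 Plekhg5-/- libraries.

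LOC115489042 was measured at 0.058, 0.189 and 0.184 CPM in the Plekhg5+/+ libraries and at 1.99, 1.48 and 1.32 CPM in the Plekhg5-/- libraries. Its groups did not overlap (log2 fold change 3.46, SE 0.337, adjusted p = 0.000858, edgeR's quasi-likelihood test), and with the transgene the log2 fold change was 4.38 (adjusted p = 0.000176, same test). The sum of Vamp3 and LOC115489042 was 59.2, 50.3 and 49.9 CPM against 57.9, 44.6 and 44.1 CPM, with overlap (log2 fold change -0.12, SE 0.105, adjusted p = 0.997, same test). Vamp3 held 99.7% to 99.9% of that sum in the Plekhg5+/+ libraries and 96.5% to 97% in the Plekhg5-/- libraries. A search of the whole transcript set for copies elsewhere in the genome covered protein-coding genes of the window, and not long non-coding RNAs such as Gm30120. Including the Eno1 and Vamp3 copies above, it found 35 among the deposited genes (at least 300 bases with at least 90% identity). Of these, 15 were tested. The 2 changed among them were Gm8483 and LOC115489042, and 4, which were these 2 with Eno1b and Gm5855, had an unadjusted p under 0.05. With the counts of each copy added to its matching gene, a setting chosen after the data were seen, 4 genes remained changed, namely Plekhg5, Tnfrsf25, Slc2a5 and Gm30120, and 0 outside the window. Under this setting Gm8483 and LOC115489042 are no longer genes of their own and could not be called. At an unadjusted p under 0.05 edgeR had 543 lower and 495 higher genes outside the window with copies counted apart, and DESeq2 without a prior then called 28 genes there.

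The gene lists around the known role of Plekhg5 showed no changed gene. Of all genes tested, 5.32% had an unadjusted p under 0.05. Of the 40 tested genes of the core autophagy machinery 0 were changed, 1 was lower and 1 higher at an unadjusted p under 0.05, and the median log2 fold change was 0.02, against 0.01 for all genes outside the window. These 2 genes were the protease gene Atg4d (log2 fold change -0.18) and Atg7, the enzyme that activates Atg8 proteins (0.19), with an adjusted p of 0.929 each (edgeR's quasi-likelihood test). Rab26, the GTPase activated by Plekhg5, was at 6.67, 6.04 and 6.49 CPM in Plekhg5+/+ and at 6.41, 6.72 and 6.41 CPM in Plekhg5-/- libraries. The levels overlapped, with a log2 fold change of 0.02 (SE 0.112, adjusted p = 0.999, same test). Of 32 genes of secretory autophagy and the Rab26 pathway 0 were changed, and 2 were higher at an unadjusted p under 0.05, the exocyst gene Exoc2 (0.22) and the galectin gene Lgals3 (0.79), which is also listed for disease-associated microglia. Mouse Sod1, the superoxide dismutase gene whose protein is handled by this route, was at 183, 147 and 144 CPM against 186, 152 and 147 CPM (log2 fold change 0.03, SE 0.107, adjusted p = 0.997, same test).

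Relatives of Plekhg5 did not pass the test. Of the other Plekhg genes Plekhg4 had the smallest p (4.12, 4.72 and 3.31 CPM against 1.64, 2.83 and 2.97 CPM; log2 fold change -0.71, adjusted p = 0.836, edgeR's quasi-likelihood test). Its groups did not overlap, and with the transgene its log2 fold change was 0.46. For Plekhg1 and Plekhg3 log2 fold changes were 0.04 each.

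Lysosomal genes and genes of the motoneuron did not pass the test either. Of 46 lysosomal genes 0 were changed, and 34 had a positive and 12 a negative log2 fold change with a median of 0.05. Galc, a lysosomal galactosidase needed for myelin turnover, was the 1 member with an unadjusted p under 0.05 (0.18, adjusted p = 0.886, edgeR's quasi-likelihood test), and Ctsd, which encodes cathepsin D, was at 0.07. Of 25 cholinergic motoneuron genes 0 had an unadjusted p under 0.05 (median -0.02). Chat, their first member, was at 29.5, 32.6 and 30.8 CPM against 31.5, 28.3 and 31.0 CPM (log2 fold change -0.03, SE 0.109, adjusted p = 0.997, same test). The medians were -0.04 for 23 neurofilament and axonal cytoskeleton genes, 0.00 for 40 genes of synaptic vesicles and transmitter release, 0.01 for 31 receptors of glutamate, GABA and glycine and -0.04 for 30 voltage-gated ion channels. Of these only Syt4, a synaptotagmin, was lower (-0.16, adjusted p = 0.929), and the receptor subunits Gria1 (0.12) and Glra2 (0.17) were higher, at an unadjusted p under 0.05. Axon injury genes, which motoneurons raise after nerve damage, had 0 of 22 members at an unadjusted p under 0.05, and for Atf3 levels of 3.54, 2.64 and 1.99 CPM stood against 1.40, 1.48 and 2.43 CPM. Of 31 genes of inherited motoneuron disease outside the window 0 reached an unadjusted p under 0.05 (median -0.02).

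Heat shock proteins were the list with the most members at low unadjusted p-values. These chaperones hold or refold damaged proteins in the cytosol. Of 24 tested members 18 were lower in Plekhg5-/- mice at an unadjusted p under 0.05 and 0 were higher, where 2.79% of all genes tested were lower and 2.53% higher by this rule. None was changed (adjusted p 0.138 to 1, edgeR's quasi-likelihood test). The median log2 fold change was -0.31, and in 9 members all 3 Plekhg5-/- libraries lay below all 3 controls, where 3.99% of all genes did.

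Hsph1, a large chaperone of the Hsp110 family, was at 574, 464 and 365 CPM in the Plekhg5+/+ libraries and at 272, 290 and 283 CPM in the Plekhg5-/- libraries (log2 fold change -0.73, SE 0.124, adjusted p = 0.138, edgeR's quasi-likelihood test). Hspa1a, the inducible Hsp70, was at 99.8, 69.8 and 16.8 CPM against 8.60, 9.10 and 19.6 CPM (log2 fold change -2.33, SE 0.578, adjusted p = 0.713, same test). In Hspa1a the third control lay within the range of the knockout libraries, and in both genes the first control was the highest and the third the lowest. Chordc1, an HSP90 co-chaperone, was at 135, 118 and 89.8 CPM against 75.7, 82.8 and 83.5 CPM (log2 fold change -0.50, adjusted p = 0.593, same test). Averaged over the list, log2 ratios to the mean control level were 0.298, 0.0499 and -0.348 for the controls and -0.442, -0.507 and -0.385 for the knockout libraries.

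The next list was that of the endoplasmic reticulum and its chaperones. Of 30 genes of the unfolded protein and integrated stress response, 12 were lower and 0 higher at an unadjusted p under 0.05. Of all genes tested, 2.79% were lower and 2.53% higher by this rule. In the list 0 were changed, and the median log2 fold change was -0.17. Averaged over the list, the third control was at a log2 ratio of -0.22 to the mean control level, and the knockout libraries were at -0.224, -0.271 and -0.233. Hspa5, the chaperone BiP, was at 651, 504 and 303 CPM against 263, 261 and 292 CPM (log2 fold change -0.84, SE 0.217, adjusted p = 0.713, edgeR's quasi-likelihood test). Hyou1 was at 130, 131 and 106 CPM against 85.8, 92.2 and 98.5 CPM (log2 fold change -0.41, adjusted p = 0.522, same test), and Hsp90b1, the Hsp90 of the endoplasmic reticulum, at 660, 570 and 493 CPM against 415, 422 and 420 CPM (log2 fold change -0.45, adjusted p = 0.608, same test). In these 3 genes the groups did not overlap, and the third control was nearest to the knockout libraries.

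The first 2 Plekhg5+/+ libraries were the highest in many genes of both lists. In 18 of the 24 heat shock genes and 11 of the 30 genes of the unfolded protein response the 2 highest of all 12 libraries were the first and second Plekhg5+/+ libraries, which was so for 4.41% of all genes tested. The same held for 9 of 32 immediate early genes and 7 of 23 glucocorticoid-responsive genes. Leaving out the first Plekhg5+/+ library moved the median of the heat shock list to -0.18 and leaving out the third moved it to -0.42. Without the third Plekhg5+/+ library, edgeR called 59 genes (0.288% of the genes tested), of which 44 outside the window were lower, among them Hspa1a, Hsph1, Hspa5, Bag3 and Xbp1. With the transgene the medians of the 2 lists were 0.09 and 0.08, and Hspa1a was at 9.41, 8.98 and 11.6 CPM with Plekhg5 and at 18.5, 16.1 and 11.7 CPM without it. DESeq2 without a prior on fold changes, the other count model, called 34 genes (0.155%), 19 of them lower outside the window, including the heat shock genes Hsph1, Hspa1a, Hspa1b and Chordc1.

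Schwann cell genes also differed between the control libraries. In a spinal cord sample these genes mark attached nerve roots. Of 16 Schwann cell genes 8 were lower at an unadjusted p under 0.05, where 2.79% of all genes tested were. Of the list 0 were changed (median -0.39). With the transgene the median of the list was 0.68. Averaged over the Schwann cell genes, log2 ratios to the mean control level were 0.15, 0.405 and -0.555 for the controls and -0.591, -0.462 and -0.17 for the knockout libraries. The second control was the highest here, whereas the first was the highest for heat shock genes. Without the second Plekhg5+/+ library the Schwann cell median was -0.25. With 1 library left out at a time the range was -0.54 to -0.25. In 0 Schwann cell genes did all 3 Plekhg5-/- libraries lie below all 3 controls, where 3.99% of all genes did. The part of the Schwann cell, muscle and immediate early transcripts in the chaperone levels was not tested.

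**Figure D5:**
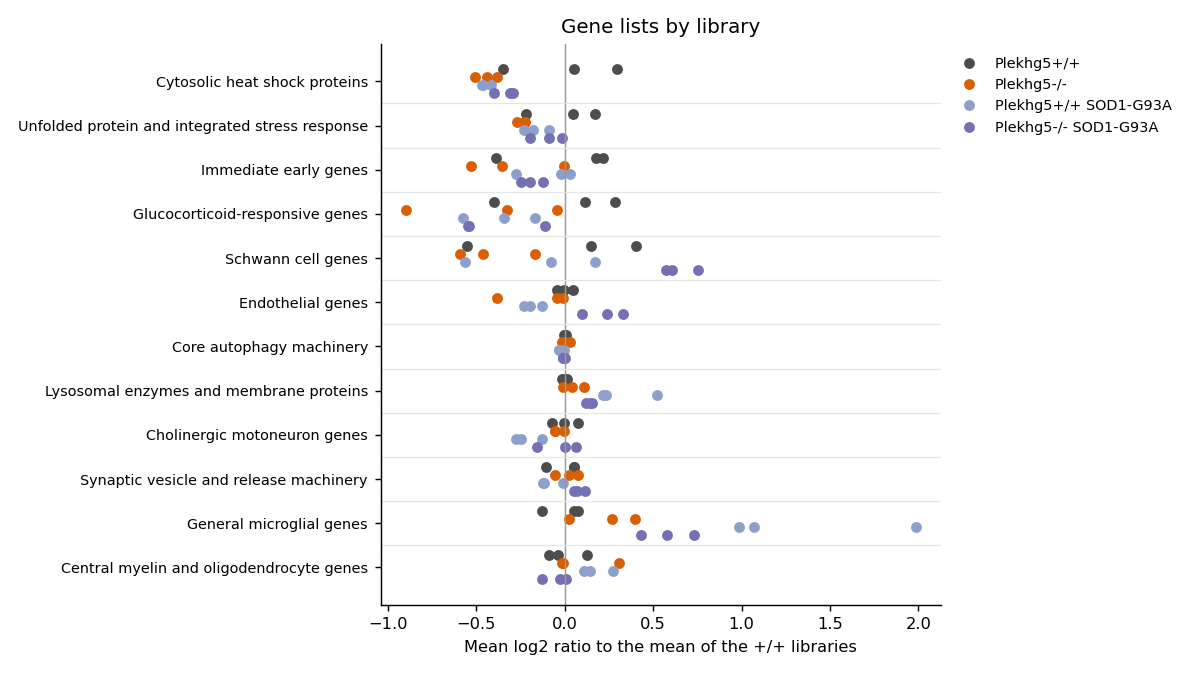
Mean log2 ratio to the mean of the Plekhg5+/+ libraries (x axis) over the tested genes of 12 gene lists (rows), with 1 point per library and colours by genotype. In the heat shock list the first and second Plekhg5+/+ libraries lie at 0.298 and 0.0499 and the third at -0.348, close to the Plekhg5-/- libraries at -0.507 to -0.385; the autophagy list shows almost no spread.

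Immediate early and endothelial genes were the next lists with several lower members. Of 32 immediate early genes 5 were lower and 1 higher at an unadjusted p under 0.05 (median -0.23), and 0 were changed. Over all genes tested, 2.79% were lower and 2.53% higher by this rule. Fos was at 38.7, 31.0 and 13.4 CPM against 10.8, 12.9 and 27.6 CPM, with overlap (log2 fold change -0.70, adjusted p = 0.976, edgeR's quasi-likelihood test), and Ier3 at 15.4, 13.3 and 10.2 CPM against 8.63, 10.1 and 8.83 CPM (log2 fold change -0.50, adjusted p = 0.713, same test). Jund was the member with a higher level (0.31). Of 30 endothelial genes 4 were lower and 0 higher at an unadjusted p under 0.05 (median -0.10). Averaged over this list, log2 ratios to the mean control level were -0.0427, 0.0479 and -0.0052 for the controls. For the knockout libraries they were -0.385, -0.0458 and -0.0087, so that the first stood apart. Pecam1, the first gene of the list, was at 21.98, 22.41 and 20.18 CPM against 13.02, 18.65 and 22.43 CPM, with overlap (log2 fold change -0.26, adjusted p = 0.997, same test). Ly6c1, a surface protein of endothelium, was at 31.0, 31.8 and 32.9 CPM against 19.2, 23.1 and 19.2 CPM (log2 fold change -0.64, SE 0.123, adjusted p = 0.253, same test). Here all 3 controls were alike, and DESeq2 without a prior called the gene (adjusted p = 0.00169). With the transgene Ly6c1 went the other way, without overlap (log2 fold change 0.47, adjusted p = 0.402, edgeR's quasi-likelihood test). The median of the endothelial list was 0.40 there. Angpt2, a ligand of the Tie2 receptor, was at 2.26, 2.27 and 1.75 CPM against 1.08, 1.33 and 1.29 CPM (log2 fold change -0.76, adjusted p = 0.593, edgeR's quasi-likelihood test). Of 23 glucocorticoid-responsive genes 20 had a negative log2 fold change and 1 was lower at an unadjusted p under 0.05 (Map3k6, -1.11). Fkbp5 was at -0.17. The median was -0.21, and it was -0.42 without the first and -0.06 without the third Plekhg5-/- library and -0.10 without the first and -0.39 without the third Plekhg5+/+ library.

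Microglial lists had positive medians without a changed gene. Of 16 general microglial genes 16 had a positive log2 fold change (median 0.23), 0 had an unadjusted p under 0.05 and 0 were changed. Without the first Plekhg5-/- library the median was 0.128 and without the third it was 0.321. Averaged over the list, log2 ratios to the mean control level were 0.0763, -0.13 and 0.0538 for the controls and 0.4, 0.264 and 0.0221 for the knockout libraries, so that the third knockout library lay within the range of the controls. Cd68, a lysosomal protein of phagocytes, was at 6.67, 7.21 and 6.31 CPM against 10.4, 10.2 and 7.73 CPM (log2 fold change 0.49, SE 0.304, adjusted p = 0.976, edgeR's quasi-likelihood test). Its groups did not overlap, and the third knockout library was nearest to the controls. Over homeostatic microglial genes outside the window the median was 0.18 (12 of 14 positive), with the purinergic receptor gene P2ry12 at 32.2, 29.4 and 30.3 CPM against 47.3, 36.9 and 31.1 CPM (log2 fold change 0.33, adjusted p = 0.929, same test). Over 22 disease-associated microglial genes it was 0.17 (20 positive), and Gpnmb had a log2 fold change of 0.78 (adjusted p = 0.976, same test). With the transgene the medians of these 3 lists were -0.83, -0.48 and -0.78. Gfap, the intermediate filament of astrocytes, was at 1830, 1330 and 1420 CPM against 2480, 1920 and 1650 CPM, with overlap (log2 fold change 0.40, adjusted p = 0.956, same test). Over 28 reactive astrocyte genes the median was -0.06, with 3 lower at an unadjusted p under 0.05, where 2.79% of all genes tested were. Among these 3, the groups overlapped in B3gnt5 and Steap4, and the third control was the lowest of its group. Medians were 0.16 for 25 interferon-stimulated genes, -0.01 for 21 complement and MHC genes and 0.14 for 26 proliferation genes, with 0 members of these 3 lists at an unadjusted p under 0.05.

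In oligodendrocytes Opalin, a myelin membrane protein, had the smallest p. It was at 24.4, 24.6 and 35.7 CPM in the Plekhg5+/+ libraries and at 48.2, 42.7 and 48.9 CPM in the Plekhg5-/- libraries, without overlap (log2 fold change 0.72, SE 0.135, adjusted p = 0.236, edgeR's quasi-likelihood test). It was called by DESeq2 without a prior (adjusted p = 0.000589) and by edgeR without the third Plekhg5+/+ library (log2 fold change 0.92, adjusted p = 0.00538). Aspa, the aspartoacylase of oligodendrocytes, was at 73.0, 55.6 and 74.9 CPM against 93.7, 89.0 and 89.5 CPM (log2 fold change 0.42, adjusted p = 0.713, edgeR's quasi-likelihood test). These were the 2 of 26 myelin genes with an unadjusted p under 0.05, where 5.32% of all genes tested had one. The median of the list was 0.06. Mbp itself had a log2 fold change of 0.06 (adjusted p = 0.997, same test). With the transgene Opalin was at 49.4, 48.8 and 45.8 CPM with Plekhg5 and at 39.5, 31.5 and 39.5 CPM without it, in the reverse order.

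Metabolic and housekeeping lists held no changed gene. Medians were 0.01 for 50 subunits of oxidative phosphorylation, -0.02 for 23 genes of glycolysis without Eno1, 0.08 for 46 ribosomal proteins without Rpl22, 0.00 for 34 proteasome subunits, 0.05 for 28 genes of sterol and fatty acid synthesis and 0.05 for 31 genes of superoxide dismutases and the Nrf2 response. Of the ribosomal genes 44 were positive. Their log2 ratios to the mean control level averaged 0.232, -0.155 and -0.0775 for the controls and 0.342, -0.0199 and -0.092 for the knockout libraries, so that the first library of each genotype stood apart. Without the first Plekhg5-/- library the ribosomal median was -0.05 and that of oxidative phosphorylation -0.10, and without the first Plekhg5+/+ library they were 0.21 and 0.12. Among the metabolic and housekeeping genes, Psmb9, a subunit of the immunoproteasome, was at 0.899, 0.881 and 1.32 CPM against 1.61, 1.93 and 1.51 CPM (log2 fold change 0.71, adjusted p = 0.929, edgeR's quasi-likelihood test). The sterol genes Lss (0.23) and Srebf1 (0.20) were higher at an unadjusted p under 0.05. Of 20 circadian clock genes Per2 (-0.55) and Bhlhe41 (-0.16) were lower, and of 23 spinal neuropeptides Npff (0.68) and Nmb (0.33) were higher by this rule, where 5.32% of all genes were either. Hox genes, whose levels depend on the segment of the cord, had a median of -0.03 with 0 of 23 members at an unadjusted p under 0.05. Medians were -0.16 for 12 red cell genes, -0.06 for 28 meningeal fibroblast genes, 0.08 for 19 pericyte genes, 0.07 for 16 oligodendrocyte progenitor genes, 0.01 for 14 general astrocyte genes, -0.08 for 25 genes of motile cilia, -0.09 for 25 hypoxia genes, 0.04 for axon injury genes and 0.00 for 9 lymphocyte genes.

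Finally, the 10 largest increases and 10 largest decreases outside the window, among genes with at least 1 CPM, an unadjusted p under 0.01 and no overlap of the groups, were taken from 167 such genes. Changed genes, among them Gm8483 (log2 fold change 1.69), had been left out beforehand. By this choice none of those taken passed the test in edgeR with all libraries. DESeq2 without a prior called 6 of the decreases, namely Ptgs2 (adjusted p = 4.34e-06), Nat8f5 (0.000495), Hspa1l (0.000607), Grrp1 (0.00323), Sdf2l1 (0.015) and Mall (0.0177). Without the third Plekhg5+/+ library edgeR called Ptgs2, Hspa1l, Nat8f5, Mall, Sdf2l1 and P4ha1. The largest decrease was that of Ptgs2, the inducible cyclooxygenase, at 8.44, 9.72 and 3.49 CPM against 0.731, 1.05 and 1.64 CPM (log2 fold change -2.66, SE 0.483, adjusted p = 0.236, edgeR's quasi-likelihood test). Hspa1l followed, an Hsp70 gene next to Hspa1a, at 7.31, 5.54 and 2.08 CPM against 0.819, 0.964 and 1.64 CPM (log2 fold change -2.13, adjusted p = 0.3, same test). Its counts were not whole in 11 of 12 libraries. In both genes the third control was the lowest of its group. Nat8f5, an N-acetyltransferase gene, was at 2.32, 2.67 and 1.65 CPM against 0.819, 0.512 and 0.6 CPM (log2 fold change -1.77, adjusted p = 0.134, same test). Log2 fold changes of the other 7 were -1.61 for Mall, -1.43 for Derl3 and -1.16 for Sdf2l1, both of the endoplasmic reticulum, -1.14 for Sbspon, -1.08 for the serpin gene Serpina3g, -0.97 for Grrp1 and -0.94 for P4ha1, a collagen prolyl hydroxylase.

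The largest increases were smaller in level. The long non-coding RNA Gm5535 was at 1.10, 0.85 and 1.78 CPM against 5.21, 3.19 and 3.85 CPM (log2 fold change 1.71, SE 0.363, adjusted p = 0.401, edgeR's quasi-likelihood test). Ccl28, a chemokine of mucosal tissues, was at 0.609, 0.913 and 1.29 CPM against 2.90, 2.80 and 2.68 CPM (log2 fold change 1.58, adjusted p = 0.383, same test). Both groups were clearly apart in these genes, and DESeq2 without a prior called both (adjusted p = 0.00579 each) and Banf2os. Gm5535 (chromosome 2, 144173150 to 144189290) lies within the span of Banf2os (144059142 to 144207860) on the same strand. How far Gm5535 and Banf2os share reads was not tested. Without the third Plekhg5+/+ library edgeR called Banf2os. The other 8 were Gm6334 (1.20), Banf2os (0.98), 2900005J15Rik (0.91), Epsti1 (0.90), Tmc3 (0.83), Gm30158 (0.79), Gm33727 (0.78) and Nrm (0.76), of which 4 are non-coding RNAs and 1 a pseudogene. Over all genes tested, 3.99% had all Plekhg5-/- libraries below and 4.72% all above the Plekhg5+/+ libraries.

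Whether the effect of Plekhg5 loss differed with the transgene was tested as an interaction of the 2 genotypes. In edgeR's quasi-likelihood test 0 of 20155 genes passed, with 1824 of them at an unadjusted p under 0.05, and DESeq2 without a prior called 95. The Plekhg5 effect on Plekhg5, Slc2a5, Gm30120, Gm8483 and LOC115489042 had the same direction in both comparisons and passed the test in both.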

How the data were processed

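Polyadenylated RNA of spinal cord was sequenced by the authors as single-end reads with a stranded kit. Per the methods and the submitters' processing notes, the authors trimmed reads with Cutadapt version 2.4, mapped them with STAR version 2.7.2b to GRCm38.p6 plus a human SOD1 sequence and, with featureCounts version 1.6.4, assigned them by strand to RefSeq exons, dividing each read with several alignments or features into fractions. The deposited values are therefore expected counts per gene, without normalization, for 45906 genes. How far the counts of near-identical genes depend on this division was not tested. Columns were matched to samples by name, and 0 columns remained unmatched.

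Counts were rounded, filtered with filterByExpr (20155 genes kept) and scaled with TMM. The 12 libraries were fitted together with edgeR version 4.0.16 (quasi-likelihood, robust) in R version 4.3.3, with the genotype as term. A gene with an adjusted p under 0.05 (Benjamini-Hochberg over all genes tested) is called changed. SE was taken from the fold change and its F value. CPM use the TMM library sizes, and log2 ratios by library a prior count of 2. The window holds genes of chromosome 4 within 10 Mb of Plekhg5 and was left out of the gene lists. Copies of protein-coding genes of the window were searched with blastn version 2.17.0 in GENCODE M21 transcripts on GRCm38. Depth limits precision below about 1 CPM. The p-values of this fit rest on the spread between mice within groups, estimated over the 4 genotypes together. The fits were tested on simulated data.

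Named were the targeted genes and Rab26, the changed genes and 3 neighbours on each side. Of each of the 43 lists the first gene and the 2 with the smallest p were named. From genes outside the window that were not changed, the 10 largest increases and decreases were also named. These had non-overlapping groups, an unadjusted p under 0.01 and at least 1 CPM. Further genes of the window and the copies were named after their values were seen, as were Xbp1, Bag3 and Hspa1b. The comparison and the lists were chosen with earlier results of these data known. Replicate numbers belong to different mice. DESeq2 version 1.42.0 (fold changes shrunken by a prior, which is the setting of the study, or not) was run as an alternative, as were its size factors in edgeR, other filters, only the libraries of a comparison, a replicate block, Y-linked transcripts as a covariate, an adjusted p under 0.1, windows of 5 and 20 Mb, each library left out, and, added after the data were seen, the copies added to their matching genes. Some genes and the results that need them are not reported here.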

Additional observations from a re-analysis of the deposited data

Results flagged for a closer look

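Of the 155 named genes, 9 had groups that did not overlap in either comparison of the 2 Plekhg5 genotypes but differed in direction. Some named genes had been taken for a lack of overlap without the transgene. The share of all genes tested that met the same rule was not counted. For none of the 9 did the interaction pass edgeR's quasi-likelihood test. They were chosen because of these directions. The interaction (log2 fold change with minus without the transgene) was 1.75 for Angpt2 (-0.76 without and 0.99 with the transgene, adjusted p = 0.235), 1.11 for Ly6c1 (-0.64 and 0.47, adjusted p = 0.235), -1.10 for Opalin (0.72 and -0.38, adjusted p = 0.329), 0.65 for Hyou1 (-0.41 and 0.24, adjusted p = 0.338) and 0.73 for Chordc1 (-0.50 and 0.23, adjusted p = 0.338). It was -1.58 for Tmc3 (0.83 and -0.75, adjusted p = 0.338), 2.26 for Sbspon (-1.14 and 1.11, adjusted p = 0.338), -1.62 for Cd68 (0.49 and -1.13, adjusted p = 0.375) and 0.32 for Syt4 (-0.16 and 0.16, adjusted p = 0.375).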

How the results depend on the processing

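The number of changed genes outside the window, 2 as reported, was 1 with at least 10 counts required in every library, 28 and 26 with DESeq2 without and with a prior on fold changes, 4 with the replicate block and 0 with copies added to their matching genes. With copies added, the 2 changed pseudogenes are no longer separate genes and could not be called in any comparison. The number within the window, 3 besides Plekhg5, was 5 with DESeq2 with or without a prior and 1 with only the 6 libraries. The interaction, 0 genes as reported, gave 95 and 108 genes with DESeq2 without and with a prior and 1 without a filter on low counts. Plekhg5 loss with the transgene, 7 genes, gave 75 and 116 genes with DESeq2, 11 with only the 6 SOD1-G93A libraries and 4 with copies added. For these differences between tools the cause was not tested. With 1 library left out at a time, the ranges were 2 to 53 genes outside the window, 2 to 5 within it, 0 to 40 for the interaction and 4 to 8 with the transgene, and the highest number outside the window, within it and for the interaction came without the third Plekhg5+/+ library (53, 5 and 40). Without the third Plekhg5-/- SOD1-G93A library 4 genes passed outside the window, and without the second library of either SOD1-G93A group 4 passed with the transgene. The log2 fold change of Plekhg5 was -2.66 to -2.40 with 1 library left out. Windows of 5 and 20 Mb gave the same counts. Deviations of same-numbered libraries correlated at 0.32, 0.08 and -0.02, and those of differently numbered libraries at -0.27 to 0.21. The highest value was that of the first library of each genotype, and its cause was not tested. With the replicate block the count outside the window rose to 4. No result reversed its direction among called values. Genes below about 1 CPM, such as Tnfrsf25 in Plekhg5-/- mice, are imprecise at this depth.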
